A study of Homo sapiens with 31 samples.

Results

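The 40 mRNAs described here encode proteins of the large subunit of the cytoplasmic ribosome. The proteins are numbered from RPL3 to RPL39, with gaps, and include the P stalk proteins RPLP0, RPLP1 and RPLP2. The set does not cover every protein of the subunit, so summed shares are of these 40 mRNAs only. They were chosen as a list of 40 Ensembl transcripts, each kept where its deposited length lay within 5 of the protein's number of amino acids minus 9. The rule itself uses no measured value, but the list was drawn up with earlier results of these data known. All 40 met the rule, out of 227264 transcripts listed and 35423 left after a reduction meant to approach 1 transcript per locus. That reduction used no map of transcripts to genes, so a locus may keep several transcripts. Shares over all transcripts are therefore not per gene and may include other isoforms, also of the members' genes. Examples are ENST00000216146 for RPL3 (403 amino acids, length 394), ENST00000307961 for RPL4 (427 amino acids, length 418), ENST00000361436 for RPL12 (165 amino acids, length 156) and ENST00000392514 for RPLP0 (317 amino acids, length 308). The length fell exactly 9 below the protein for all 40, so it was read as counted codons.

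The cell line was HEK293 T-REx, derived from human embryonic kidney and built for inducible transgenes. Ribosome profiling, which sequences the RNA fragments shielded by ribosomes (footprints), compared unedited cells (labelled naive) with lines lacking EIF4A1 (EIF4A1 KO) or EIF4A2 (EIF4A2 KO). Every genotype had 2 vehicle (DMSO) libraries, 1 at 1 µM and 1 at 10 µM PP242, an inhibitor of the mTOR kinase given for 30 min. RNA-seq had 2 naive and 2 EIF4A1 KO libraries. RNA captured on streptavidin beads with eIF4A1 or eIF4A2 carrying a streptavidin-binding peptide (SBP-eIF4A1, SBP-eIF4A2) was sequenced beside the input lysate, 2 libraries each. In a further SBP-eIF4A1 capture, cells had been transfected with siRNA 72 h before: control siRNA (siControl) gave 2 inputs and 2 pulldowns, and LARP1 siRNA (siLARP1) gave 2 inputs and 1 pulldown. The labels do not say whether a knockout line is 1 clone, how the tagged proteins were expressed, or whether replicates came from separate cultures, so p-values measure the spread between these libraries only. Gene names were at hand for the listed 40 transcripts only, so the loss of EIF4A1, EIF4A2 or LARP1 rests on the labels. No pulldown from cells without a tagged protein was analysed here. The RNA-seq, EIF4A2 KO and SBP-eIF4A2 libraries carry a separate run of sample numbers from all others. Whether they were made apart is not stated. Any such difference cannot be told apart from that of EIF4A2 KO cells, of the tagged protein or of the assay.

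Summed over the reduced set of transcripts, ribosome profiling libraries held 2513952 to 6417640 counts, pulldown and input libraries 11873158 to 17615087 and RNA-seq libraries 19680856 to 21601961. Levels are given as CPM (counts scaled to a common library total) after TMM scaling, and changes as log2 differences with the standard error (SE) from edgeR's quasi-likelihood fit. A change was called at a Benjamini-Hochberg adjusted p under 0.05 over all transcripts tested, and all 40 mRNAs passed the filter on low counts in every comparison. Ribosomal protein genes have many processed pseudogenes and some near-identical paralogs, and how the authors treated reads that fit several places is not given in the sources used here, so the absolute level of a single member is less certain than its change.

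Large-subunit proteins fold around the rRNAs of the subunit and build the peptidyl transferase surroundings, the exit tunnel and the stalks that guide translation factors and tRNAs. Their mRNAs are the best known class of TOP mRNAs, which start with a cytosine followed by an unbroken run of pyrimidines (a 5′ terminal oligopyrimidine tract). Translation of TOP mRNAs falls when the kinase complex mTORC1 is inhibited, and LARP1, an mTORC1 substrate, binds the cap and the TOP sequence and also stabilises these mRNAs. eIF4A1 and eIF4A2 are closely related DEAD-box helicases. eIF4A1 is the main helicase of the cap-binding complex eIF4F, while eIF4A2 has also been tied to the CCR4-NOT complex.

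The transcript starts were read from a table of RefSeq promoters (GRCh38.p14), which held 32 of the 40 members. The first 20 bases are printed for members at either end of the PP242 response in naive cells (RPL12, RPL13A, RPL35, RPL38, RPL15), for RPL28, which differed most between EIF4A1 KO and naive cells, for the P stalk, for RPL39 with the longest run and for RPL4 with none, 5′ to 3′ on the strand of the gene, with the pyrimidine run at the start in capitals.
RPL12: CCTCTCggctttcggctcgg
RPL13A: CTTTTCCaagcggctgccga
RPLP0: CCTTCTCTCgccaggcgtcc
RPLP1: CCCCTTTCCTCagctgccgc
RPLP2: CCTTTTCCTCCCTgtcgcca
RPL28: CTCTTTCCgtctcaggtcgc
RPL35: CTCTTTCCCTCggagcgggc
RPL38: CTTTTTCgtccttttccccg
RPL39: CCCTCCTCTTCCTTTCTCCg
RPL15: Tggaggagcttcacgcagtc
RPL4: aagcacttccttttcctgtg
These lie at chr9:127451387-127451406 (minus strand, RPL12), chr19:49487608-49487627 (plus, RPL13A), chr12:120201092-120201111 (minus, RPLP0), chr15:69452818-69452837 (plus, RPLP1), chr11:809967-809986 (plus, RPLP2), chr19:55385932-55385951 (plus, RPL28), chr9:124861938-124861957 (minus, RPL35), chr17:74203678-74203697 (plus, RPL38), chrX:119791611-119791630 (minus, RPL39), chr3:23916545-23916564 (plus, RPL15) and chr15:66504836-66504855 (minus, RPL4), each at the annotated start of the first exon. A start of C followed by at least 4 more C or T, searched on the gene's strand only, stood at 20 of the 32 annotated starts, against 4.07% of the 35116 starts in the table. Within 5 bases of the start, such a run began in 26 of the 32, against 21.1% of all. RPL39 had the longest run, with 19 pyrimidines, and the median run was 6 among the members and 0 over the whole table. Another 8 members, among them RPL4, had no pyrimidine at the annotated start, as 78.1% of all starts. For RPL4 a run of 12 began within 5 bases, and an annotated start can lie a few bases from the one used in these cells.

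In naive cells under DMSO the 40 mRNAs together held 4.28% and 4.27% of the footprint counts. After PP242 that share was 1.46% at 1 µM and 1.69% at 10 µM. EIF4A1 KO cells went from 3.74% and 3.70% to 1.85% and 1.73%, and EIF4A2 KO cells from 3.69% in both DMSO libraries to 1.26% and 1.29%. The EIF4A1 KO cells thus had the lowest loss of share, from a DMSO share below that of naive cells. At 1 µM their library lay above those of both other genotypes. At 10 µM it lay above that of EIF4A2 KO cells and only slightly above that of naive cells (1.73% and 1.69%).

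**Figure D1:**
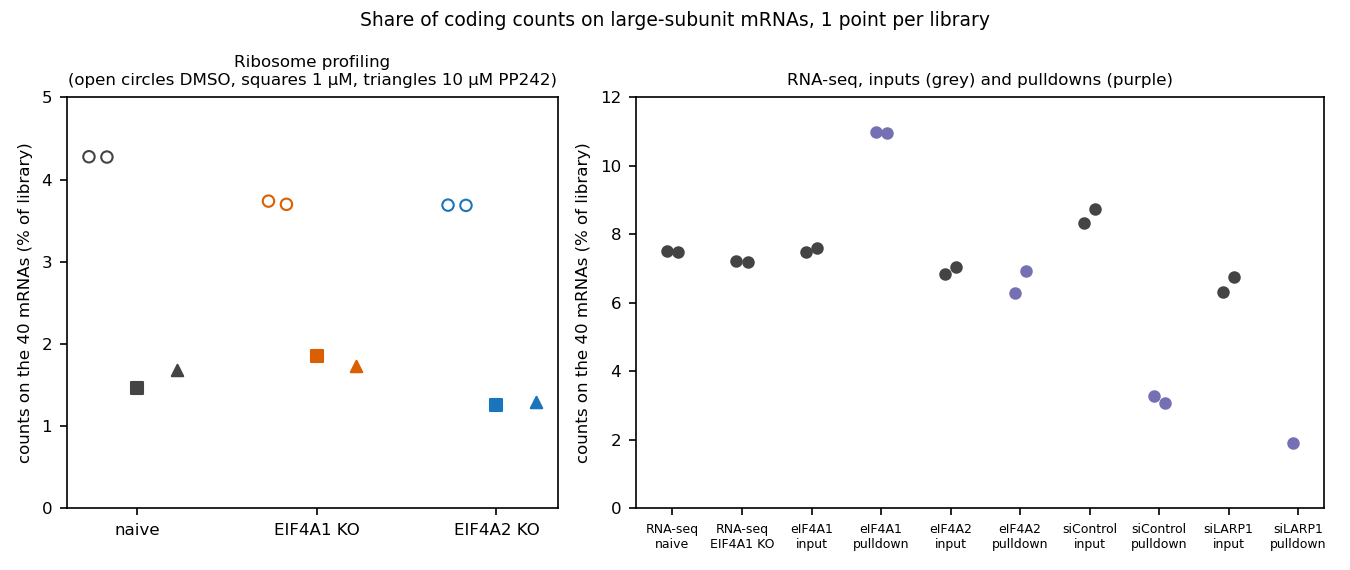
Percent of a library's counts (reduced set of transcripts) that fell on the 40 large-subunit mRNAs, 1 point per library, by group. Footprint shares under PP242 sit between 1.26% and 1.85%, below every DMSO library (3.69% to 4.28%), and the siControl pulldowns sit at 3.27% and 3.07% below inputs at 8.33% and 8.73%.

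All 40 members lost footprints under PP242 in all 3 genotypes. With the 1 µM and 10 µM library pooled as 1 group against the 2 DMSO libraries, the median change in naive cells was −1.79 on the log2 scale, or 3.47-fold lower, and 40 of 40 were called lower, where 5.71% of the 20456 transcripts tested were. Among 663 other transcripts as abundant as most members (a mean log2 CPM of at least 8), 31.98% were called lower, with a median change of −0.02. In EIF4A1 KO cells the members' median was −1.28, or 2.43-fold lower (40 of 40 called lower, against 3.71% of all). In EIF4A2 KO cells it was −1.84, or 3.58-fold lower (40 of 40, against 7.11%). No member's PP242 libraries overlapped its DMSO libraries in any genotype, where 25% (naive), 23.8% (EIF4A1 KO) and 25.2% (EIF4A2 KO) of all transcripts were lower without overlap. No RNA-seq library of PP242-treated cells was analysed here, so fewer mRNA molecules and fewer ribosomes per mRNA cannot be told apart.

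RPL12, which holds the base of the P stalk, fell furthest in naive cells. Its footprints were at 439.0 and 442.6 CPM under DMSO, 51.41 CPM at 1 µM and 64.62 CPM at 10 µM PP242, a change of −2.95 (SE 0.087, adjusted p = 2.64e-40). RPL13A, also known from a complex that silences inflammatory mRNAs, went from 1185 and 1183 CPM to 139.6 and 181.6 CPM, a change of −2.90 (SE 0.082, adjusted p = 2.13e-41). RPLP0, the stalk protein that carries the RPLP1 and RPLP2 dimers, went from 853.9 and 892.9 CPM to 107.6 and 161.4 CPM, a change of −2.73 (SE 0.084). All 3 mRNAs were lower at 1 µM than at 10 µM, and both treated libraries lay far below both DMSO libraries.

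The smallest falls in naive cells were those of RPL35, RPL38 and RPL15. RPL35, at the rim of the exit tunnel, went from 800.4 and 844.4 CPM to 384.3 CPM at 1 µM and 436.1 CPM at 10 µM, a change of −1.01 (SE 0.065, adjusted p = 1.42e-21). RPL38, a small protein known from mouse patterning defects, went from 1263 and 1245 CPM to 603.3 and 643.6 CPM (−1.01, SE 0.063). RPL15 went from 1824 and 1899 CPM to 795.3 and 864.2 CPM (−1.17, SE 0.061). RPL35 and RPL38 both carry a C followed by more than 4 pyrimidines at the annotated start, as RPL12 and RPL13A do, while RPL15 does not. The spread among members therefore ran from 2.01-fold lower for RPL35 to 7.73-fold lower for RPL12.

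The same mRNAs stood at the ends in the knockouts, with some exchanges. In EIF4A1 KO cells RPL13A fell furthest, from 974.3 and 1008 CPM to 259.2 CPM at 1 µM and 199.7 CPM at 10 µM (−2.12, SE 0.077, adjusted p = 2.51e-34), followed by RPL12 (−2.09, SE 0.080) and RPL31 at the tunnel exit (−1.72, SE 0.067). RPL35 fell least, from 608.9 and 583.1 CPM to 443.4 and 401.2 CPM (−0.50, SE 0.067, adjusted p = 2.01e-08), after RPL13 (−0.67, SE 0.066) and RPL36 (−0.75, SE 0.069). In EIF4A2 KO cells RPL12 went from 379.2 and 399.2 CPM to 31.27 and 35.47 CPM (−3.54, SE 0.090, adjusted p = 3.20e-44), or 11.6-fold lower, with RPLP0 (−3.38, SE 0.087) and RPL13A (−3.03, SE 0.082) next. RPL15 (−1.13, SE 0.060), RPL23A (−1.19, SE 0.063) and RPL38 (−1.26, SE 0.063) fell least there.

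**Figure D2:**
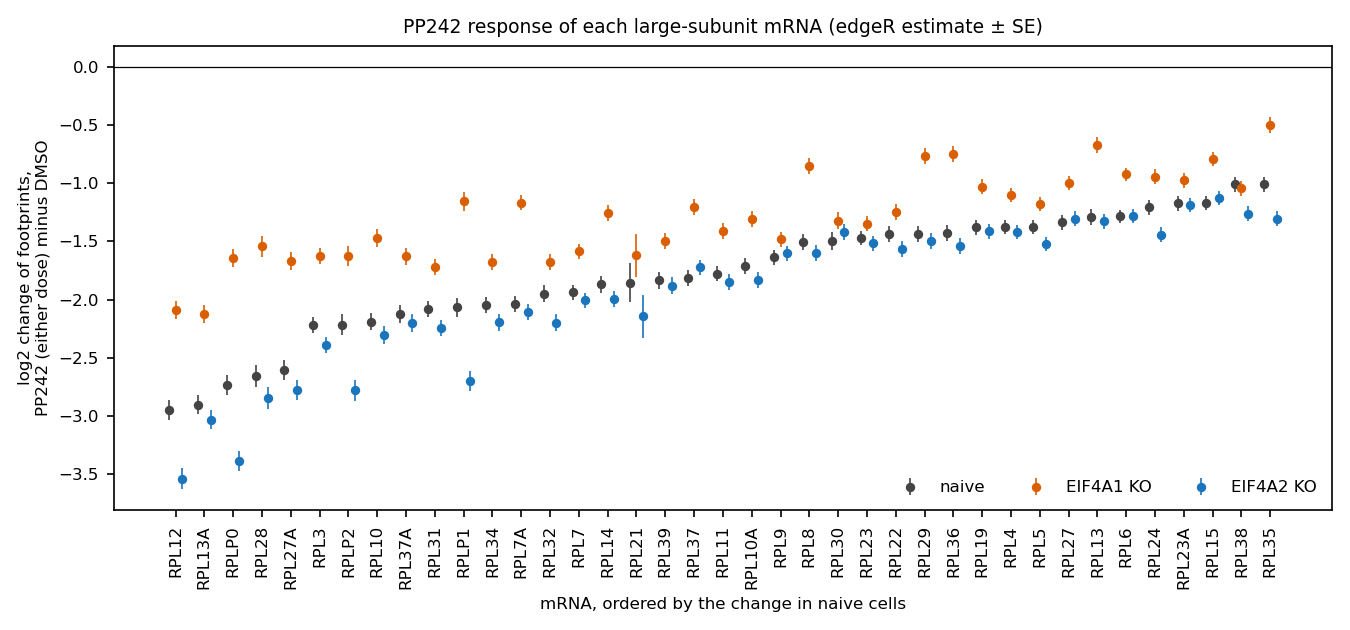
Log2 change of footprints under PP242 against DMSO for 39 of the 40 members, with SE bars, in naive, EIF4A1 KO and EIF4A2 KO cells. All points lie below 0, and RPL12 reaches −2.95 (naive), −2.09 (EIF4A1 KO) and −3.54 (EIF4A2 KO).

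Grouped by place in the ribosome, the 5 proteins of the P stalk and its base (RPLP0, RPLP1, RPLP2, RPL12, RPL9) had a median change of −2.22 in naive cells, and the 3 that reach towards the peptidyl transferase centre (RPL3, RPL8, RPL10) had −2.19. RPL5 and RPL11, which enter the subunit with the 5S rRNA and can bind MDM2, had a median of −1.58. The exit tunnel group (RPL4, RPL19, RPL22, RPL23A, RPL31, RPL35, RPL39) had −1.38, RPL23 and RPL24 at the face that binds eIF6 had −1.34, and RPL10A of the L1 stalk had −1.71. The other 20 had a median of −1.86. These groups differ in median but overlap in range, and their differences were not tested.

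The order of the members was much alike in the genotypes. Across the 40 members, the change in naive cells and that in EIF4A2 KO cells, which share no library, had a Pearson r of 0.97 and a Spearman rho of 0.97. The values were 0.84 and 0.84 between naive and EIF4A1 KO cells and 0.79 and 0.80 between EIF4A1 KO and EIF4A2 KO cells. These are descriptions over members that share libraries, depth and scaling within a genotype. Counted length was close to unrelated to the change in naive cells (rho −0.02).

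Members with a pyrimidine run at the annotated start had lower medians than the other matched members, a difference that was not tested. The 20 with a C and at least 4 more pyrimidines had a median of −2.04 in naive cells (from −2.95 to −1.01), and the other 12 matched members had −1.51 (from −2.22 to −1.17). The corresponding medians were −1.52 and −1.21 without EIF4A1, and −2.17 and −1.51 without EIF4A2. The ranges overlapped in all 3 genotypes, and the 12 include members such as RPL4 with a run that begins a few bases from the annotated start. The length of the run at the start was weakly related to the change (rho −0.24 for naive, −0.13 for EIF4A1 KO, −0.32 for EIF4A2 KO, over 32 members).

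Each dose had 1 library per genotype. In naive cells 39 of the 40 members stood higher at 10 µM than at 1 µM (median difference 0.24, from −0.06 for RPL21 to 0.67 for RPL28). In EIF4A1 KO cells 39 of the 40 stood lower at 10 µM (median −0.12), and in EIF4A2 KO cells 26 stood higher and 14 lower (median 0.06). A higher dose thus went with a larger loss in EIF4A1 KO cells and with a smaller one in naive cells, each over 1 library.

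The loss under PP242 was smaller in EIF4A1 KO cells than in both other genotypes, and this difference was tested as a contrast of the 2 changes. Against naive cells, 30 of the 40 members were called with a less negative change in EIF4A1 KO cells and 0 with a more negative one, where 3.62% and 2.46% of all transcripts were. The median difference was 0.39, and 39 of 40 lay above 0. Against EIF4A2 KO cells, 34 of 40 were called (3.7% of all), with a median difference of 0.52 and all 40 above 0. Of the 663 other transcripts of like abundance, 16.14% and 19.16% were called in that direction. The 2 comparisons share the EIF4A1 KO libraries. Each change is relative to the genotype's own DMSO libraries, which in EIF4A1 KO cells stood below naive for 39 of 40 members (median −0.22). At 10 µM many members stood below their naive level in EIF4A1 KO cells and many above it. RPLP0 stood above (208.4 against 161.4 CPM) and RPL35 below (401.2 against 436.1 CPM). Treated levels were not tested between genotypes. Counted length had a rho of 0.16 and 0.08 with the 2 contrasts over the members, and −0.09 and −0.14 over all transcripts.

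RPL28, a protein found in eukaryotes but not in bacteria, showed the largest difference from naive cells. Its log2 ratio of footprints to mRNA in naive cells, 3.26, was the highest of the members. Whether counting of shared reads plays a part was not tested. Its naive footprints went from 510.0 and 540.4 CPM under DMSO to 66.48 CPM at 1 µM and 105.8 CPM at 10 µM. In EIF4A1 KO cells they went from 367.0 and 392.2 CPM to 144.1 and 119.1 CPM, so that both treated knockout libraries stood above both treated naive ones while both DMSO libraries stood below. The difference of the changes was 1.11 (SE 0.13, adjusted p = 5.50e-09).

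RPLP0 followed the same pattern and had the largest difference from EIF4A2 KO cells. In EIF4A1 KO cells it went from 691.4 and 652.3 CPM to 222.6 CPM at 1 µM and 208.4 CPM at 10 µM, and in EIF4A2 KO cells from 777.1 and 739.1 CPM to 68.84 and 76.07 CPM. The difference of the changes was 1.09 (SE 0.12, adjusted p = 9.12e-11) against naive and 1.74 (SE 0.12, adjusted p = 8.32e-19) against EIF4A2 KO cells. RPLP1 went from 432.8 and 451.9 CPM to 207.2 and 190.6 CPM in EIF4A1 KO cells and from 582.2 and 525.1 CPM to 81.44 and 88.97 CPM in EIF4A2 KO cells (difference 1.54, SE 0.12). RPL12 stood at 90.22 and 89.16 CPM under PP242 in EIF4A1 KO cells and at 31.27 and 35.47 CPM in EIF4A2 KO cells (difference 1.45, SE 0.13). RPL27A went from 463.2 and 469.2 CPM to 154.6 and 140.3 CPM in EIF4A1 KO cells, and its change differed from that of naive cells by 0.94 (SE 0.12).

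**Figure D3:**
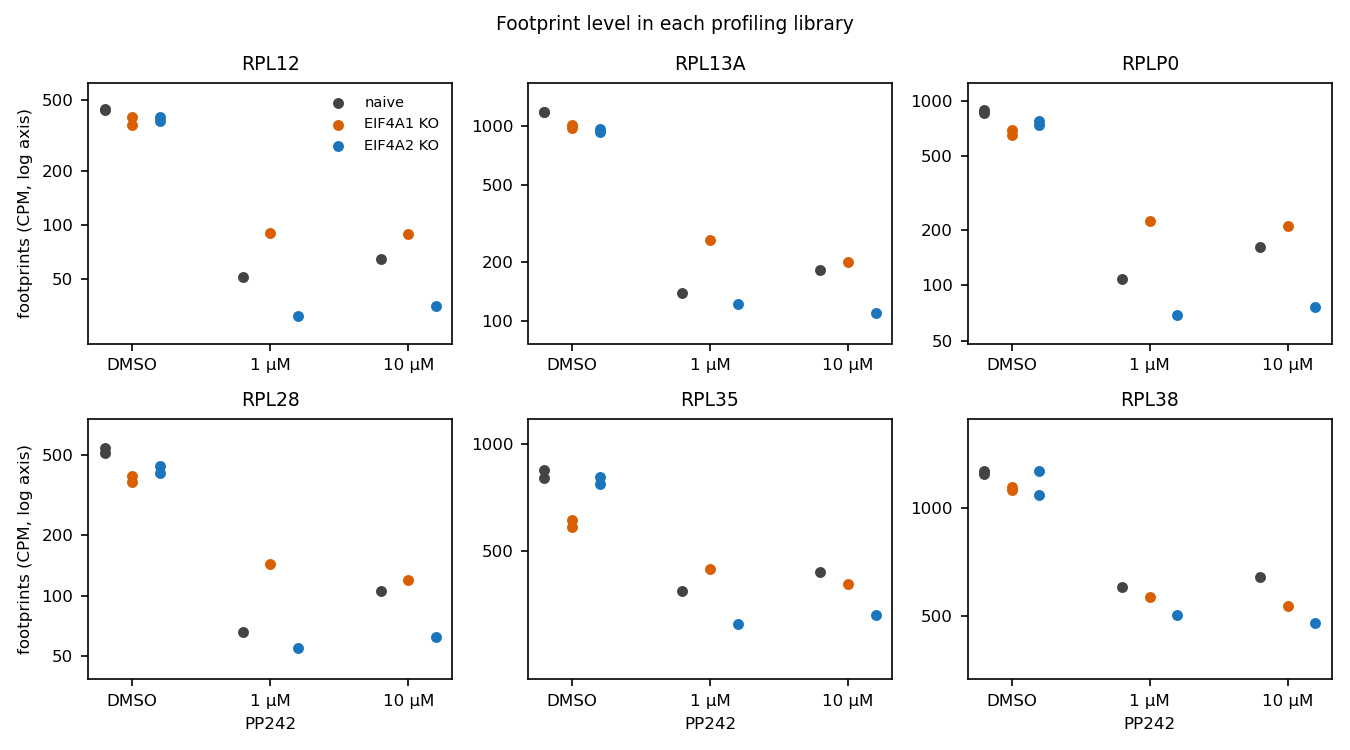
Footprint level in TMM-scaled CPM (log axis) of RPL12, RPL13A, RPLP0, RPL28, RPL35 and RPL38 in each of the 12 ribosome profiling libraries, 1 point per library. RPLP0 under PP242 lies at 208.4 and 222.6 CPM in EIF4A1 KO cells and at 68.84 and 76.07 CPM in EIF4A2 KO cells.

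At the other end, RPL38 differed by −0.04 (SE 0.089, adjusted p = 0.882), RPL23 by 0.13 (SE 0.086) and RPL9 by 0.15 (SE 0.090) between EIF4A1 KO and naive cells. RPL38 stood at 1143 and 1122 CPM under DMSO and at 564.5 and 534.1 CPM under PP242 in EIF4A1 KO cells, each below its naive counterparts. RPL30, RPL9 and RPL23 had the smallest differences from EIF4A2 KO cells (0.10, 0.12 and 0.17) and were not called. Among the 10 members not called against naive cells were both proteins of the eIF6-binding face, RPL5, and RPL22 and RPL23A of the exit tunnel group, while RPL3, RPL8 and RPL10 near the peptidyl transferase centre were all called, with a median of 0.65. Against EIF4A2 KO cells RPL24 (0.50), RPL5 (0.34) and RPL22 (0.32) were called, while RPL23 and RPL23A were not. Differences between these groups were not tested.

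EIF4A2 KO and naive cells differed less. The median difference of the PP242 changes was −0.12, with 34 of 40 below 0, and 2 members were called, both lower in EIF4A2 KO cells, where 0.0636% of all transcripts were called lower. These were RPLP0 (−0.65, SE 0.12, adjusted p = 0.00390) and RPLP1 (−0.63, SE 0.12, adjusted p = 0.00526). RPL12 and RPLP2 had −0.59 and −0.56 with adjusted p = 0.0543 and 0.0597, while RPL37, RPL30 and RPL15 had 0.09, 0.08 and 0.04. DESeq2's Wald test called 0 of the 40 lower (0.0342% of all). The EIF4A2 KO and EIF4A1 KO comparisons share the 4 naive libraries.

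These differences depend on how the 2 doses are read. Counts with a library left out stand without a share over all transcripts, so a general change in calls is not separated. The contrast of EIF4A1 KO and naive cells called 36 members at 1 µM alone (3.8% of all transcripts called higher), 17 at 10 µM alone (1.51%), and 19 without the naive 1 µM library. With a score that rises by equal steps from DMSO to 1 µM to 10 µM it called 0 (0.00489% of all), as did the contrast with EIF4A2 KO cells (0.00489%). Under that score the fall within EIF4A1 KO cells was called for 0 members and 0% of all transcripts, while all 40 had an unadjusted p under 0.05 (5.38% of all, lower). The contrast of EIF4A2 KO and naive cells called 0 at 1 µM and 3 lower at 10 µM (0.117% of all), 0 without the naive 10 µM or the EIF4A2 KO 1 µM library, 1 without the first EIF4A2 KO DMSO library, 4 without the EIF4A1 KO 1 µM library and 6 without the naive 1 µM library.

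Under DMSO, both knockouts had somewhat fewer footprints on the members than naive cells. In EIF4A1 KO cells 32 of 40 were called lower (11.9% of 19798 transcripts) and 0 higher (10.9%), with a median of −0.22. In EIF4A2 KO cells 37 of 40 were called lower (4.33%) and 0 higher (3.76%), with a median of −0.22. Libraries did not overlap for 37 and 38 of the members, all lower in the knockout, where 30.9% and 24% of all transcripts were lower without overlap. These 2 comparisons share the naive libraries, and without the second naive library the count for EIF4A2 KO cells was 23. Among 632 other transcripts of like abundance, 36.23% and 15.19% were called lower.

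RPLP1 lost most in EIF4A1 KO cells, from 714.6 and 720.1 CPM to 432.8 and 451.9 CPM, a change of −0.70 (SE 0.060, adjusted p = 4.05e-20). RPL36 went from 912.1 and 931.2 CPM to 616.9 and 651.1 CPM (−0.54, SE 0.057). These falls were 1.62- and 1.46-fold. RPL30, RPL32 and RPL11 were not called (0.04, −0.04 and −0.07). In EIF4A2 KO cells RPL13 had the largest change, from 1346 and 1486 CPM to 942.0 and 925.7 CPM (−0.60, SE 0.052, adjusted p = 1.44e-19). RPL21 (−0.49, SE 0.12) and RPL27A (−0.43, SE 0.058) followed, and RPL35 (−0.06), RPL38 (−0.09) and RPL24 (−0.14) were not called.

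The mRNAs themselves changed little without EIF4A1. In RNA-seq 22 of 40 were called lower and 3 higher, where 18.4% and 18.1% of 25674 transcripts were, and the median change was −0.07. At like abundance 43.95% of 471 other transcripts were called lower and 27.39% higher. RPL10A, of the stalk that releases spent tRNAs, had the largest fall, from 1427 and 1454 CPM to 1193 and 1195 CPM (−0.27, SE 0.027, adjusted p = 7.65e-10). RPL12 (−0.22, SE 0.028) and RPL7 (−0.21, SE 0.025) came next. RPLP0 rose from 4299 and 4330 CPM to 4770 and 4750 CPM (0.14, SE 0.022, adjusted p = 5.29e-06), RPLP1 from 1347 and 1409 CPM to 1547 and 1493 CPM (0.14, SE 0.028), and RPL39, of the tunnel wall, from 924.4 and 894.3 CPM to 993.6 and 1008 CPM (0.14, SE 0.029). Without the second EIF4A1 KO library 16 members were called, 3 of them higher.

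The difference between the footprint change and the mRNA change (the change of translation efficiency) was called lower in EIF4A1 KO cells for 20 of 40 members and higher for 0, where 6.38% and 3.27% of 25391 transcripts were. The median was −0.18 among the members and −0.06 over all transcripts, and 32.15% of 507 others of like abundance were called lower. RPLP1 and RPLP0, whose mRNAs rose, had the lowest values, −0.87 (SE 0.063, adjusted p = 1.30e-21) and −0.55 (SE 0.058). RPL13 followed with −0.55 (SE 0.058), and RPL30, RPL10A and RPL11 stood at 0.04, 0.04 and 0.03 and were not called.

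**Figure D4:**
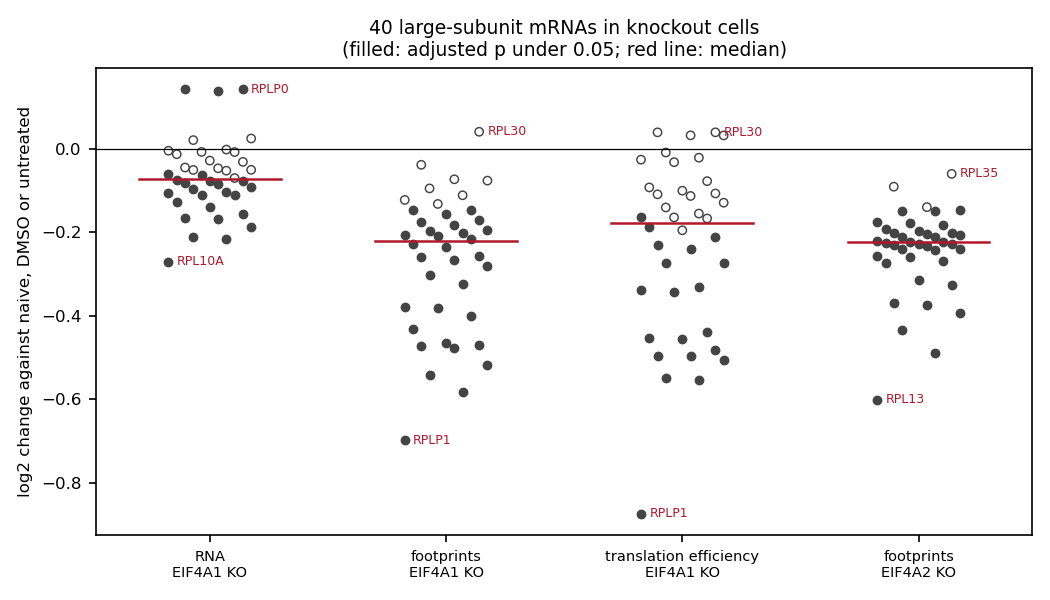
Log2 change of EIF4A1 KO or EIF4A2 KO against naive cells for the 40 members, for mRNA, footprints under DMSO and translation efficiency. mRNA changes lie between −0.27 and 0.14, and RPLP1 stands lowest for footprints (−0.70) and translation efficiency (−0.87) in EIF4A1 KO cells.

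Levels within the set differed several-fold per counted codon. In naive cells under DMSO, footprints per codon ran from 2.83 CPM for RPL12 to 20.6 CPM for RPL38 and 20.8 CPM for RPL39, with a median of 6.85 CPM, apart from RPL21 at 0.355 CPM. mRNA per codon ran from 2.77 CPM for RPL21 to 23.1 CPM for RPL37 and 23.9 CPM for RPL38, with a median of 10.4 CPM, apart from RPL28 at 0.424 CPM. The log2 ratio of footprints to mRNA had a median of −0.55 for the members and −0.09 over 25391 transcripts, and 32 of 40 members lay below the latter.

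RPL21 and RPL28 stood apart in opposite directions in this ratio (−2.95 and 3.26, against −2.30 to 0.63 for the rest). RPL21 had 258 and 338 footprint counts beside 9129 and 8329 RNA-seq counts in naive cells. RPL28 had 2628 and 3203 footprint counts beside 1118 and 1141 RNA-seq counts. In the SBP-eIF4A1 inputs, made with the same kit and scaled separately, RPL28 had 5333 and 5196 counts and stood at 402.8 and 379.8 CPM, against 51.87 and 56.59 CPM in naive RNA-seq. Whether counting of reads shared with copies or isoforms plays a part was not tested.

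Captured RNA of the 2 helicases differed for these mRNAs. The members made up 7.49% and 7.61% of the SBP-eIF4A1 input counts and 11% and 10.96% of the pulldowns, and 6.85% and 7.05% of the SBP-eIF4A2 input and 6.30% and 6.93% of its pulldowns. With SBP-eIF4A1, 38 of 40 were called higher in the pulldown than in the input and 0 lower (28.7% and 26.6% of 26526 transcripts), with a median of 0.73. At like abundance 48.72% of 429 other transcripts were called higher, with a median of 0.11. With SBP-eIF4A2, 6 were called higher and 24 lower (29.8% and 30% of all), with a median of −0.17. At like abundance 56.18% of the 429 others were called lower, with a median of −0.36, so the members' share called lower was close to that background.

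RPL37A, a small zinc-binding protein, led both pulldowns. It stood at 1155 and 1127 CPM in the SBP-eIF4A1 input and at 3302 and 3167 CPM in the pulldown, a difference of 1.503 (SE 0.067, adjusted p = 9.37e-12). With SBP-eIF4A2 it went from 1031 and 1036 CPM to 1485 and 1772 CPM (0.66, SE 0.066). RPL36 came second in both (1.28 and 0.38), followed by RPLP1 with SBP-eIF4A1 (1.14, SE 0.064) and RPL31 with SBP-eIF4A2 (0.33, SE 0.060). RPL4, whose loop lines the exit tunnel and which is the longest of the 40, was lowest in both, at 7196 and 7301 CPM in the SBP-eIF4A1 input and 6859 and 7182 CPM in the pulldown (−0.05, SE 0.050, adjusted p = 0.465), and at 6178 and 6328 CPM against 3217 and 3483 CPM with SBP-eIF4A2 (−0.90, SE 0.051). RPL14, the other member not called with SBP-eIF4A1, had 0.12 (SE 0.071), and RPL6 had 0.25 (SE 0.061) and −0.81 (SE 0.061). RPL29 had −0.78 (SE 0.065) with SBP-eIF4A2.

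The contrast of the 2 captures was called for all 40 members, each higher with SBP-eIF4A1, where 10.4% of all transcripts were. The median difference was 0.94, against 0.03 over all transcripts and 0.35 over the 429 others of like abundance, of which 56.41% were called higher. RPLP2 had the largest difference. It rose from 708.8 and 783.9 CPM to 1574 and 1584 CPM with SBP-eIF4A1, and went from 712.6 and 767.3 CPM to 609.4 and 649.0 CPM with SBP-eIF4A2 (difference 1.32, SE 0.084, adjusted p = 6.71e-08). RPL27 came next (1.29, SE 0.096). RPL3, which reaches the peptidyl transferase centre, had the smallest difference, with 3032 and 3072 CPM against 3956 and 4055 CPM for SBP-eIF4A1 and 2594 and 2661 CPM against 2223 and 2485 CPM for SBP-eIF4A2 (0.55, SE 0.076, adjusted p = 1.00e-04), before RPL22 (0.64, SE 0.097) and RPL23 (0.66, SE 0.078). Across the 40, enrichment with SBP-eIF4A1 was lower for longer members (rho −0.56 with counted codons), and over all transcripts rho was −0.20.

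**Figure D5:**
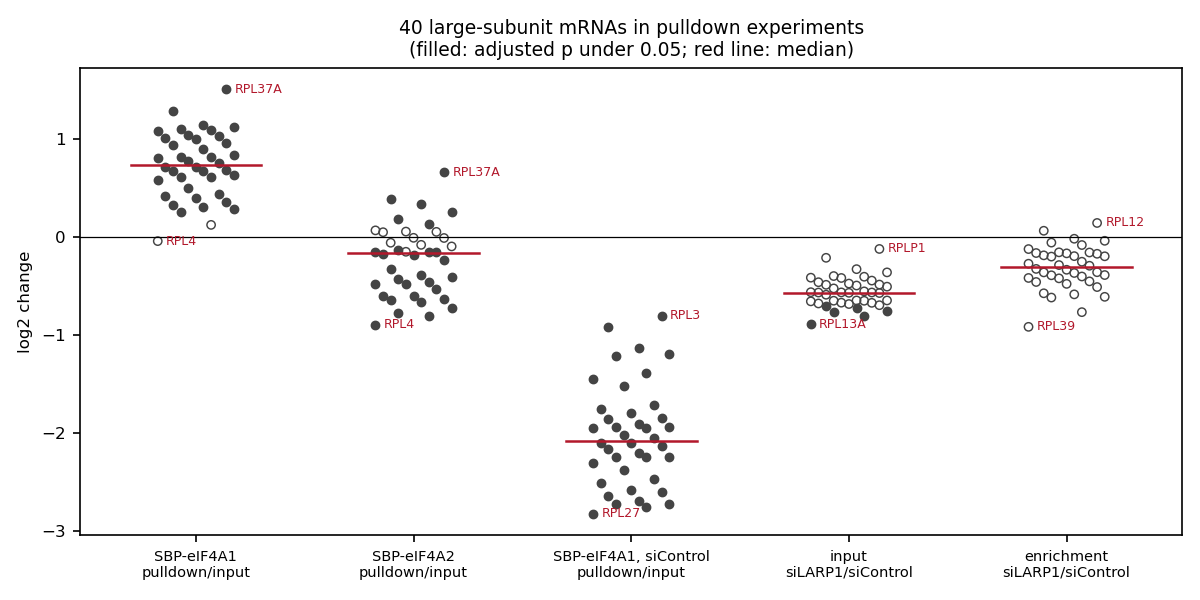
Log2 difference of pulldown against input for the 40 members in the SBP-eIF4A1, SBP-eIF4A2 and SBP-eIF4A1 siControl captures. Medians are 0.73, −0.17 and −2.08, and RPL37A stands highest in the captures without siRNA (1.503 and 0.66).

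In the siRNA experiment, with input and pulldown taken as labelled, the direction for SBP-eIF4A1 was the opposite. The labels of these libraries were not checked by another measure, and an exchange of input and pulldown would turn the sign of this difference and change what the siLARP1 input values stand for. After siControl the members made up 8.33% and 8.73% of the input and 3.27% and 3.07% of the pulldown counts, and all 40 were called lower in the pulldown, where 24.1% of 26634 transcripts were. The median was −2.08, or 4.23-fold lower, against 0.08 over all transcripts and −0.51 over 508 others of like abundance, of which 51.38% were called lower. RPL27 went from 1898 and 2055 CPM to 285.8 and 271.2 CPM (−2.83, SE 0.18, adjusted p = 7.31e-16), RPL38 had −2.76 (SE 0.19) and RPL29 −2.73 (SE 0.19). RPL3 fell least, from 2618 and 2420 CPM to 1491 and 1386 CPM (−0.81, SE 0.17, adjusted p = 1.33e-04), with RPL5 (−0.92, SE 0.17) and RPL22 (−1.13, SE 0.18) next.

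Set against the capture without siRNA, the enrichment of all 40 members was called lower after siControl (23.8% of 26043 transcripts), with a median difference of −2.87 against 0.10 over all. Without the filter on low counts the latter was 0.18. At like abundance 53.88% of 451 other transcripts were called lower, with a median of −0.59. The difference was less negative for longer members (rho 0.57 with counted codons), and over all transcripts rho was 0.26. RPL27 had the largest difference (−3.57, SE 0.13, adjusted p = 7.44e-10) with RPL9 (−3.36, SE 0.13) and RPL37 (−3.35, SE 0.13) next, and RPL3 had the smallest (−1.14, SE 0.12), after RPL4 (−1.28, SE 0.12) and RPL5 (−1.47, SE 0.13). The 2 experiments differ in siRNA transfection and in whatever else separates them, and these cannot be told apart. Enrichment in one was nearly unrelated to that in the other across the members (rho 0.19).

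After LARP1 siRNA the input libraries held less of these mRNAs than after siControl, with 6.32% and 6.76% of counts. All 40 changes were below 0 with a median of −0.57, against 0.01 over all transcripts, and the libraries did not overlap for 39, all lower in siLARP1 (21.5% of all transcripts were). 6 members were called lower (0.173% of all): RPL13A, RPL14, RPL28, RPL15, RPL32 and RPL6. RPL13A went from 4691 and 5190 CPM to 2761 and 2556 CPM (−0.89, SE 0.17, adjusted p = 0.00640), RPL14 from 1379 and 1625 CPM to 933.3 and 786.3 CPM (−0.80, SE 0.18, adjusted p = 0.0208), and RPL28 from 982.2 and 1039 CPM to 660.6 and 521.3 CPM (−0.77, SE 0.18, adjusted p = 0.0372). RPLP1, the only member whose libraries overlapped, stood at 1871 and 2081 CPM and at 1623 and 1999 CPM (−0.13, SE 0.18, adjusted p = 0.842), and RPL13 (−0.22) and RPLP2 (−0.33) were not called either. Of 508 other transcripts of like abundance 3.15% were called lower.

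The count of 6 rests on few libraries and on the test. Counts below without a share over all transcripts do not separate the members from a general change in calls. A fit of the inputs alone called 1 member, as did a fit with the replicate number as a block. 36 of the 40 had an unadjusted p under 0.05 (5.71% of all transcripts, lower), and DESeq2's Wald test called 27 (0.942% of all, lower). No member was called without the second siControl input or the second siLARP1 input, 2 without the first of either and 3 without the siLARP1 pulldown, while 15 and 19 were called without the first or the second siControl pulldown.

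The capture with SBP-eIF4A1 after LARP1 siRNA had 1 pulldown library, in which the members held 1.90% of counts. It was assumed to vary like the other groups. Enrichment relative to siControl had a median of −0.31, with 38 of 40 below 0, and edgeR called 0 members and 0 of all transcripts (0%), with all members at an adjusted p of 0.9999. At an unadjusted p under 0.05 there were 5 members and 834 transcripts (3.13%), and DESeq2's Wald test called 0 members. RPL39 had the lowest value, with inputs at 783.1 and 821.9 CPM and pulldowns at 138.3 and 184.9 CPM after siControl, and inputs at 486.3 and 760.1 CPM and a pulldown at 66.30 CPM after siLARP1 (−0.92, SE 0.31). RPL21 (−0.77, SE 0.29) and RPL27A (−0.62, SE 0.27) followed. RPL12 and RPL10A stood at 0.14 and 0.06, with SEs of 0.27. Beside the members' median of −0.31, the median was −0.05 over all transcripts and −0.10 over 508 others of like abundance. All members share the 1 siLARP1 pulldown, so a shift of that library would move them together.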

How the data were processed

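Each deposited file listed raw read counts per versioned Ensembl transcript and a length, with no header, and the deposited counts were unscaled whole numbers. Per the submitters' processing notes the build was hg38 and the tools included CASAVA 1.8 and STAR 2.7.0a, while the counting tool, the annotation and the treatment of reads with several matches are not given in the sources used here. Transcripts with equal counts in all 31 libraries were collapsed (94734 with counts to 77343). To approach 1 transcript per locus, the members were kept first. Others were dropped at a Pearson correlation of log2 CPM (pseudocount 0.5) of at least 0.9 with a kept one within 10 rows, which left 35423. Isoforms of a gene with a lower correlation stayed, since no map of transcripts to genes was used. Tests used edgeR 4.0.16 in R 4.3.3 (TMM, filterByExpr with a minimum count of 10 and total of 15, glmQLFit and glmQLFTest, two-sided, Benjamini-Hochberg), with DESeq2 1.42.0 as an alternative, and the fitting script was tested on simulated data. PP242 was coded as either dose against DMSO, a choice made because each dose had 1 library and earlier results gave similar falls at both. The contrasts between genotypes differed by dose. The members, role groups and tests were chosen with earlier results of these data known. Members were named, per comparison, as the 3 with the lowest and the 3 with the highest change, except 1 member that is counted but not reported here by name. Same-numbered libraries did not deviate together in most groups, so no replicate block entered the tests. Small-subunit proteins, elongation factors and the targeted genes were not used, for want of a table of transcript names.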

Additional observations from a re-analysis of the deposited data

Results flagged for a closer look

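The following results are set out because the same contrast differed between groups by a test of the difference itself, as contrasts of edgeR's quasi-likelihood fit adjusted over all transcripts. Shares in brackets are of all transcripts and of others of like abundance, called in the same direction. The change under PP242 differed between EIF4A1 KO and naive cells for 30 of the 40 members (3.62% and 16.14%). Between EIF4A1 KO and EIF4A2 KO cells it differed for 34 (3.7% and 19.16%). Between EIF4A2 KO and naive cells it differed for 2, RPLP0 and RPLP1 (0.0636% and 0.302%). With the dose score 0 members were called in each of these contrasts. Each change is relative to the genotype's own DMSO libraries, and treated levels were not tested between genotypes. The enrichment in the pulldown differed between SBP-eIF4A1 and SBP-eIF4A2 for 40 members (10.4% and 56.41%). Between SBP-eIF4A1 after siControl and without siRNA it differed for 40 (23.8% and 53.88%). No group held 4 or more libraries, so single libraries were not screened as outliers.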

How the results depend on the processing

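Across the alternatives run, 223 of 251 counts of called members stayed within 1.5 times the reported count, as did the 40 of 40 calls under PP242 in naive and EIF4A2 KO cells, in the contrast of the 2 captures and in the siControl pulldown in every alternative. With single libraries left out, called members ranged from 16 to 24 for mRNA, 23 to 32 and 23 to 37 for footprints in EIF4A1 KO and EIF4A2 KO cells, 16 to 24 for translation efficiency, 19 to 35 and 30 to 35 for the PP242 contrasts of EIF4A1 KO with naive and EIF4A2 KO cells, 0 to 6 for that of EIF4A2 KO with naive cells, 24 to 32 for the SBP-eIF4A2 pulldown and 0 to 19 for the siLARP1 input. With the dose score, 0 members were called within EIF4A1 KO cells and 0 in each of the 3 contrasts. At 10 µM alone 17 were called between EIF4A1 KO and naive cells. Between EIF4A2 KO and naive cells 0 were called at 1 µM and 0 by DESeq2's Wald test. For the siLARP1 input 12 were called with DESeq2's size factors, 19 with no filter on low counts, 27 by DESeq2's Wald test, 12 over all distinct transcripts and 1 in a fit of the inputs alone. The cause of these shifts was not tested. Counts in this paragraph, and counts above with a library left out, stand without the share over all transcripts. They do not separate the members from a general change in calls.

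The values that changed sign were those of members not called and 1 median. None did so with DESeq2's size factors. Translation efficiency without the filter gave RPL11 −0.0084, RPL10A −0.0011 and RPL30 −0.0013. The contrast of EIF4A1 KO and naive cells gave RPL38 0.051 at 1 µM, and that of EIF4A2 KO and naive cells gave RPL30 −0.011 and RPL37 −0.0056 with the dose score and −0.058 and −0.043 at 10 µM. Over left-out libraries, footprints ranged from −0.050 to 0.12 for RPL30 in EIF4A1 KO and −0.21 to 0.015 for RPL38 in EIF4A2 KO cells. Translation efficiency ranged from −0.017 to 0.084 for RPL11, −0.046 to 0.086 for RPL10A and −0.078 to 0.096 for RPL30. RPL38 ranged from −0.082 to 0.012 in the contrast of EIF4A1 KO and naive cells. In that of EIF4A2 KO and naive cells the median ranged from −0.25 to 0.024, RPL15 from −0.038 to 0.11, RPL30 from −0.094 to 0.25 and RPL37 from −0.034 to 0.21. RPLP1 ranged from −0.28 to 0.032 in the siLARP1 input, and RPL23A from −0.18 to 0.12 and RPL10A from −0.026 to 0.12 in siLARP1 enrichment.

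Same-numbered libraries deviated together little (correlations of −0.062 to 0.048), apart from siControl input and pulldown (0.16 and 0.19 in 2 fits). The labels do not say whether same-numbered libraries were paired, and low correlations cannot show that they were not. With a replicate block, called members numbered 21 for mRNA, 30 and 31 for footprints in EIF4A1 KO and EIF4A2 KO cells, 20 for translation efficiency, 38, 31 and 40 for the pulldowns and their contrast, 40 for siControl, 40 for siControl against no siRNA and 1 for the siLARP1 input. No paired analysis was possible for PP242 because each dose had 1 library, nor for siLARP1 enrichment because its pulldown was 1 library.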
